A study of Mus musculus with 12 samples.

Results

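Lin28a, Lin28b, Trim71 and L1td1 encode RNA-binding proteins of stem cells, and their RNA was followed here through neural differentiation with and without knockdown of the histone demethylase gene Jarid1b. They were chosen by name as heterochronic genes and their stem cell partners. That choice, like the gene lists below, was made with earlier results of these data known. All 4 were measured, each by 1 probe set, among 18784 genes on the arrays. The study compared mouse embryonic stem cells (ESC) and neural progenitor cells (NPC), each carrying an shRNA, on 12 Affymetrix mouse gene arrays. Control ESC and control NPC carried a scrambled shRNA, knockdown ESC and knockdown NPC an shRNA against Jarid1b, and each group had 3 arrays. The cells were of the line E14TG2a.4, grown as ESC without feeders in serum with LIF, and all carried a PLKO.1 lentiviral vector with puromycin selection. Per the labels, virus was left on ESC for 16 h and selection began 48 h after transduction. Whether NPC were derived before or after transduction is not stated. The labels name 1 Jarid1b construct, and they do not say whether replicates were separate transductions or cultures, so every p-value here reflects how far these arrays spread, and that spread may be technical.

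Lin28a and Lin28b are paralogs that bind precursors of the let-7 microRNA family and block their maturation, Lin28a by recruiting enzymes that add a uridine tail. Mature let-7 in turn represses Lin28a, Lin28b and Trim71, which gives a loop that separates early from late developmental states. Trim71, the mammalian counterpart of worm lin-41, is a ubiquitin ligase family protein that represses messenger RNAs. L1td1 derives from a LINE-1 element's first open reading frame and is found with Lin28a in ribonucleoprotein particles of pluripotent cells.

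The let-7 sequences are shown because Lin28 proteins bind let-7 precursors and a list of let-7 targets is used below. No sequence of a target was searched. All 12 let-7 family hairpins of the RefSeq table (GRCm38.p6) held the letters GAGGUAG, by which the mature strand was located in them. In every mature strand listed with these hairpins they are bases 2 to 8, the seed. No mature strand was listed for let-7a-2. The seed is in capitals in these mature strands.
mmu-let-7g-5p: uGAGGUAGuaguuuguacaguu
mmu-let-7b-5p: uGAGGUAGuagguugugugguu
The motif GGAG, a known Lin28 contact in the precursor loop, followed the mature strand in 9 hairpins and was not found in that stretch of 3, those of let-7b, let-7c-2 and miR-98. It is in capitals in the let-7g hairpin (chr9:106178840-106178927, plus strand), and the let-7b hairpin (chr15:85707319-85707403, plus strand) is shown for contrast.
let-7g: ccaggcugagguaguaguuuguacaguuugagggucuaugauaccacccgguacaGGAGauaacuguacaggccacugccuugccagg
let-7b: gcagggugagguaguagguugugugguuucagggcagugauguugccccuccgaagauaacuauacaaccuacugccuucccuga
None of the 18 let-7 and related microRNA genes looked for was among the named probe sets, so no let-7 level is given here.

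The labels of the groups were checked first. Kdm5b, the current symbol of Jarid1b, lay at 12.25, 12.47 and 12.50 (log2) in control ESC and at 10.64, 10.90 and 10.50 in knockdown ESC. In NPC it lay at 11.24, 11.15 and 11.30 in control and at 10.38, 10.48 and 10.54 in knockdown cells, so the groups did not overlap in either state. Of 12 pluripotent cell markers, 0 rose and 12 fell from control ESC to control NPC, and of 12 neural progenitor markers 12 rose and 0 fell. Arrays of a group correlated at 0.992 to 0.997 across genes. Levels are the log2 values on the arrays, and they are compared between groups for 1 gene, never between genes.

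Lin28a, Trim71 and L1td1 fell from ESC to NPC in control cells, and Lin28b rose. Throughout, rose and fell mean an adjusted p under 0.05 in limma's test over all genes. Of the 4 genes 1 rose and 3 fell, where 48.6% of all genes were called, 23.5% higher and 25.1% lower. The states did not overlap for any of the 4, against 52.3% of all genes, 24.5% higher and 27.8% lower in NPC. In knockdown cells 1 rose and 3 fell as well, where 48.8% of genes were called, 23.8% higher and the rest lower, and again none overlapped, against 62.4% of genes (28.5% higher, 33.9% lower). The median change of the 4 in control cells was -1.90 against -0.042 over all genes. So a change with cell state is common on these arrays, and the sizes set Lin28a, Trim71 and L1td1 apart more than the calls do. In control cells 1.52% of genes had a lower change than Lin28a, 3.5% than Trim71 and 0.27% than L1td1. For Lin28b 84.6% had a lower change, so its rise was not among the largest.

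L1td1 had the largest change of the 4. It lay at 10.01, 10.64 and 10.10 in control ESC and at 6.65, 6.17 and 6.08 in control NPC. The change was -3.95 ± 0.20 (SE), or 15.5-fold lower (adjusted p = 3.22e-09), and 0.27% of genes had a lower value. In NPC it came close to the arrays' lower quartiles, which ran from 5.84 to 6.11, and the size of its fall is therefore rough. The knockdown cells had levels of 10.04, 10.08 and 9.96 in ESC and of 6.26, 6.85 and 6.23 in NPC, a change of -3.58 ± 0.20 (SE, adjusted p = 8.53e-09). Both ESC groups overlapped, as did both NPC groups, so only the step between states stood clear of the spread of L1td1.

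Lin28a, the paralog that recruits the tailing enzymes, lay at 11.31, 11.20 and 11.24 in control ESC. In control NPC it lay at 8.70, 9.15 and 9.10. The groups did not overlap, and the change was -2.27 ± 0.13 (SE), or 4.82-fold lower (adjusted p = 8.14e-09). In knockdown cells Lin28a fell by 1.78 ± 0.13 on the log2 scale (SE, adjusted p = 8.24e-08). Its NPC level was still above the overall array medians (7.70 to 7.79), so Lin28a RNA was lower in NPC without being near the floor of the array.

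Trim71 lay at 11.60, 11.67 and 11.65 in control ESC and at 9.89, 10.36 and 10.04 in control NPC. It fell by 1.54 ± 0.12 on the log2 scale (SE), or 2.91-fold (adjusted p = 1.86e-07). In knockdown cells the change was -1.30 ± 0.12 (SE, adjusted p = 9.75e-07). Like Lin28a, it stayed well above the array medians in NPC. The arrays were made from cell populations, so fewer cells with the RNA and less RNA per cell cannot be told apart here.

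Lin28b went the other way. It lay at 7.88, 8.51 and 8.55 in control ESC and at 8.67, 9.03 and 8.95 in control NPC. The groups did not overlap, with the highest ESC array just under the lowest NPC array, and the change was 0.57 ± 0.18 (SE), or 1.49-fold higher (adjusted p = 0.0166). From knockdown ESC to knockdown NPC the change was larger, at 1.37 ± 0.18 (SE), or 2.58-fold (adjusted p = 2.42e-05). Replicate 1 had the lowest Lin28b value in all 4 groups, while the main fit had no replicate term. With a replicate block the rise in control cells kept its call. In control cells this rise no longer passed when control ESC replicate 1 was left out (0.36, adjusted p = 0.0741), control NPC replicate 2 (0.50, adjusted p = 0.0627) or control NPC replicate 3 (0.54, adjusted p = 0.0501), and with array weights (0.35, adjusted p = 0.0874), with adjusted p from 0.000434 to 0.0874 over all alternatives.

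**Figure D1:**
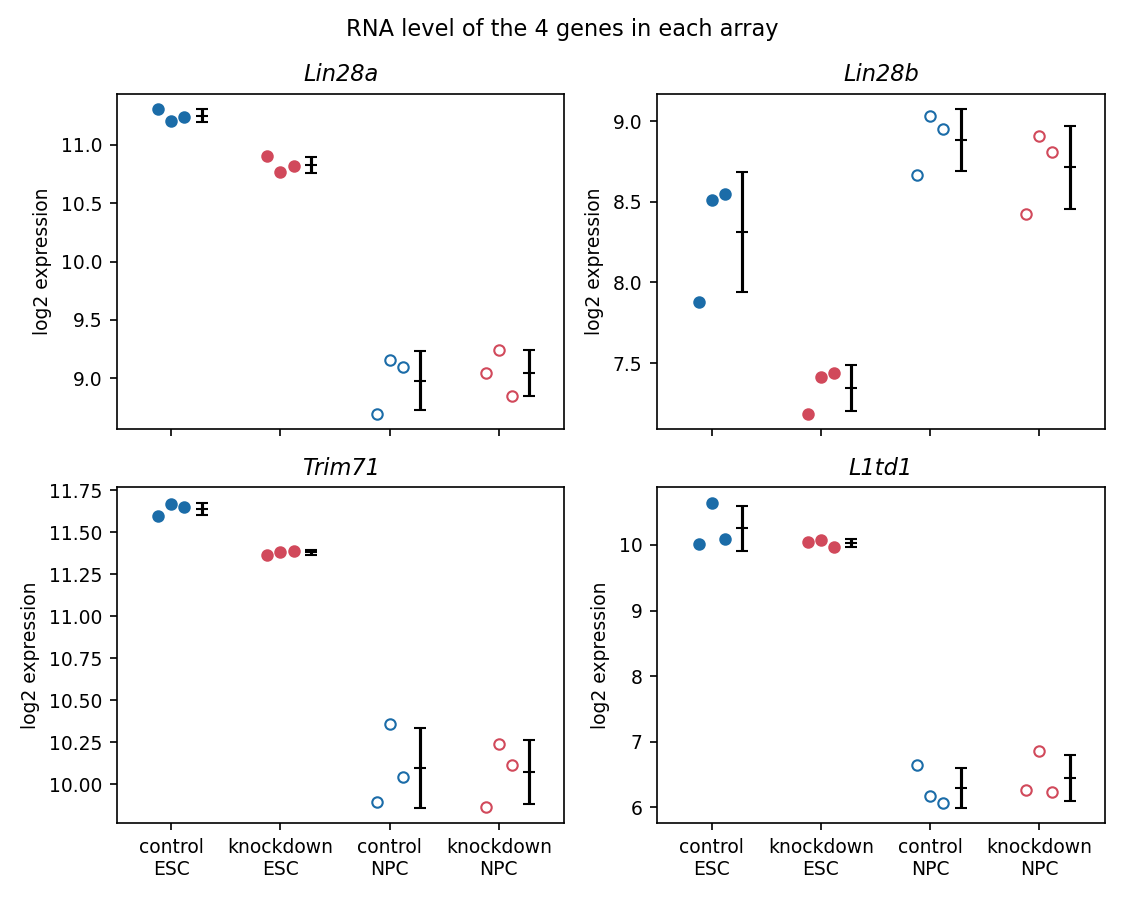
Log2 expression of Lin28a, Lin28b, Trim71 and L1td1 (y axis, a scale of its own for each gene) in control (blue) and knockdown (red) ESC (filled) and NPC (open), 1 point per array, with the mean and SD of each group in black. Lin28a, Trim71 and L1td1 are lower in every NPC array than in every ESC array, while the lowest Lin28b values, 7.19 to 7.44, are those of knockdown ESC.

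The opposite changes of the paralogs were followed within each array as Lin28b minus Lin28a, which cancels what both probe sets share in an array; its size within 1 group has no meaning, since the probe sets differ, but its change between groups does. It was -2.94 ± 0.42 (SD, n = 3) in control ESC and -0.098 ± 0.062 (SD, n = 3) in control NPC. The difference of 2.84 ± 0.25 (SE) had a two-sided exact permutation p of 0.1, the smallest that 3 unpaired arrays against 3 can give. This test and SE left out the pairing by replicate number that was taken for the control arrays. In knockdown cells Lin28b minus Lin28a moved from -3.48 ± 0.20 to -0.34 ± 0.29 (SD, n = 3), a difference of 3.15 ± 0.20 (SE, exact permutation p = 0.1). So the balance of the paralogs moved towards Lin28b with differentiation in both constructs, without overlap between the states. On knockdown it differed by -0.54 ± 0.27 in ESC and -0.24 ± 0.17 in NPC (SE), each with a two-sided exact permutation p of 0.3.

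The regions before the RefSeq gene starts are shown for these paralogs, since they moved in opposite directions. Each window holds the 250 bases before 1 annotated start, which for both genes is not the outermost one, and motifs found are in capitals.
Lin28a (chr4:134018817-134019066, minus strand): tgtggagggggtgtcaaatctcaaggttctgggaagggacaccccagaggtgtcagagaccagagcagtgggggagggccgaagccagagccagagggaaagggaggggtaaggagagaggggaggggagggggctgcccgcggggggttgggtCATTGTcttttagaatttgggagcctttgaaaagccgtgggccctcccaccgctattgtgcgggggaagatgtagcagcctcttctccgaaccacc
Lin28b (chr10:45470202-45470451, minus strand): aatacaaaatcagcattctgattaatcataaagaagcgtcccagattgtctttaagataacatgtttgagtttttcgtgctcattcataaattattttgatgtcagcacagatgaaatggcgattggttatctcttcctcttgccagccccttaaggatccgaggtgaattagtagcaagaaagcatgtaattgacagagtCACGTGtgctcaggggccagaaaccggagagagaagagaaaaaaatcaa
The motifs searched, on both strands and with no overlap among the matches, were the E-box CACGTG, the octamer ATGCAAAT, the Sox-type CATTGT and the GC box GGGCGG. The Lin28b window held the E-box, as did 6.02% of 32851 such windows. The Lin28a window held the Sox-type motif, as did 10.7%, and the Trim71 window the GC box, as did 32.7%. None of these letters was in the L1td1 window, and the octamer, present in 1.60% of windows, was in none of the 4. A match in these letters is a description of the sequence and was not tied to binding.

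In knockdown ESC Lin28b fell, and the other 3 genes were below control without passing the test. Of the 4 genes 0 rose and 1 fell, where 5.21% of all genes were called, 1.84% higher and 3.37% lower. The groups did not overlap, with knockdown below control, for 3 of the 4 genes, against 13.6% of all genes; 10.6% were apart in the other direction and 24.2% in either. The median change of the 4 was -0.34, against 0.017 over all genes. All 4 changes were thus below 0, and their sizes differed among the genes.

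Lin28b lay at 7.88, 8.51 and 8.55 in control ESC and at 7.19, 7.42 and 7.44 in knockdown ESC. It fell by 0.96 ± 0.18 on the log2 scale (SE), or 1.95-fold (adjusted p = 0.0108), and 0.52% of genes had a lower change. The call was lost without control ESC replicate 3, where the change was -0.85 (adjusted p = 0.0636), and adjusted p lay between 0.000640 and 0.0636 over all alternatives.

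Lin28a lay at 10.90, 10.77 and 10.82 in knockdown ESC, below every control array. The change was -0.42 ± 0.13 (SE), with a 95% interval of -0.70 to -0.15 and an adjusted p of 0.0755. From the 6 ESC arrays alone the adjusted p was 0.0435 and with array weights 0.0393, and without control NPC replicate 1 it was 0.0382, out of a range of 0.0382 to 0.219. The pooled SE takes in the wider spread of the NPC arrays, where the SD of Lin28a was 0.25 and 0.20, against 0.053 and 0.069 in ESC.

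Trim71 lay at 11.37, 11.38 and 11.39 in knockdown ESC, also below every control array, by a small step. Its change was -0.26 ± 0.12 (SE), with a 95% interval of -0.52 to 0.0018 and an adjusted p of 0.265. L1td1 differed by -0.23 ± 0.20 (SE, 95% interval -0.66 to 0.21, adjusted p = 0.595), and its control and knockdown arrays overlapped.

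Markers of cell types moved beside these values in knockdown ESC. Of 12 pluripotent cell markers 1 rose and 0 fell, and their summed level (log2 of the sum) was 15.77 to 15.81 in control and 15.91 to 15.95 in knockdown ESC. Of 12 neural progenitor markers 0 rose and 3 fell (Cdh2, Slc1a3 and Pax6), and their sum was 13.26 to 13.45 in control and 13.01 to 13.06 in knockdown ESC. Of 12 neuron markers 0 rose and 4 fell, Neurod1, Nefl and Map2 with the smallest p, with sums of 13.30 to 13.35 and 12.91 to 13.21. Over all genes 3.37% fell. Of the markers that did not pass, Dcx lay above control without overlap (0.26 ± 0.11, SE, adjusted p = 0.193; named after its values were seen), and in all 4 progenitor and 5 neuron markers had changes above 0. The lower Lin28b of knockdown ESC thus came with a fall of some neural markers, and their part in the result was not tested. Of the 12 neural progenitor markers 0, and of the 12 neuron markers 2, had an ESC mean under the arrays' lower quartile.

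In knockdown NPC none of the 4 genes rose or fell, where 1.03% of all genes were called, 0.820% higher and 0.213% lower. None was without overlap, against 14.2% of genes (8.30% higher, 5.91% lower). In limma's test 0 of the 4 had an unadjusted p under 0.05, with the smallest adjusted p at 0.915 for Lin28b. Lin28a lay at 9.05, 9.25 and 8.85 in knockdown NPC, within and around the control values, a change of 0.066 ± 0.13 (SE, 95% interval -0.21 to 0.34). Lin28b lay at 8.42, 8.91 and 8.81, a change of -0.17 ± 0.18 (SE, 95% interval -0.56 to 0.21). Both groups overlapped for each paralog, and the intervals leave room for changes of either sign. Kdm5b itself was 1.70-fold lower in knockdown NPC, against 3.31-fold lower in knockdown ESC. The part of that in the results for the 4 genes was not tested.

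Trim71 lay at 9.87, 10.24 and 10.12 in knockdown NPC, a change of -0.023 ± 0.12 (SE, 95% interval -0.28 to 0.24). For L1td1 the change was 0.15 ± 0.20 (SE, 95% interval -0.28 to 0.58). In the same arrays 3 of 12 pluripotent cell markers (Utf1, Tdgf1 and Esrrb) and 6 of 10 germ cell markers rose, and 0 of either list fell. Of 10 endothelial markers 5 fell and 0 rose. Over all genes 0.820% rose and 0.213% fell. Of 10 mesenchyme markers 0 rose and 1 fell, and 8 lay below control without overlap, against 5.91% of all genes. No neural progenitor, neuron or endoderm marker was called. The summed germ cell markers were 9.84 to 10.32 in control and 11.31 to 11.99 in knockdown NPC, whereas the 4 RNA-binding genes overlapped between these groups.

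The difference between the knockdown effects, NPC minus ESC, was tested directly. None of the 4 genes passed, where 1.42% of all genes were called, 1.18% higher and 0.245% lower. It was 0.79 ± 0.25 for Lin28b (SE, 95% interval 0.25 to 1.34, adjusted p = 0.150) and 0.49 ± 0.18 for Lin28a (SE, 95% interval 0.10 to 0.87, adjusted p = 0.212). Both had an unadjusted p under 0.05, 0.00783 and 0.0176. Trim71 and L1td1 had differences of 0.24 ± 0.17 and 0.38 ± 0.28 (SE, adjusted p = 0.550 and 0.566). The fall of Lin28b in ESC is therefore not shown to differ from its change in NPC. The call was gained in 3 of 19 alternatives, without control ESC replicate 1 (1.01, adjusted p = 0.0252), with array weights (1.05, adjusted p = 0.0142) and with a replicate block (0.79, adjusted p = 0.0331), out of a range of 0.0142 to 0.359.

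**Figure D2:**
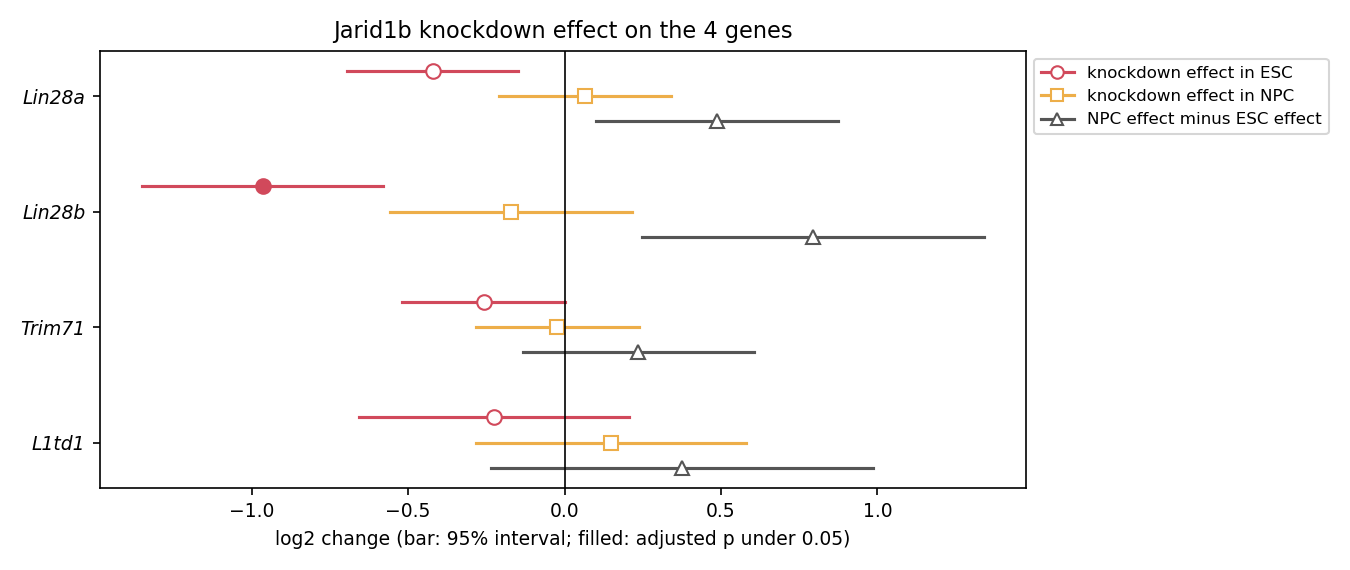
Log2 change of each gene on Jarid1b knockdown in ESC (circles) and NPC (squares), and the NPC effect minus the ESC effect (triangles), with 95% intervals from limma's fit to 12 arrays; filled symbols have an adjusted p under 0.05. Lin28b in ESC, at -0.96, is the 1 filled symbol, and every NPC interval spans 0.

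Of 4 genes that act with Lin28 in let-7 decay, 1 rose and 1 fell from control ESC to control NPC, where 48.6% of all genes were called. Trim25, a ubiquitin ligase known as a cofactor of Lin28a-dependent tailing, fell from 11.07, 11.06 and 11.07 in control ESC to 7.91, 7.97 and 8.34 in control NPC. The fall was 7.95-fold, at -2.99 ± 0.13 (log2, SE, adjusted p = 1.15e-09). It rose in knockdown NPC, to 9.09, 8.66 and 8.67, by 0.73 ± 0.13 (SE, adjusted p = 0.0214). That rise, without overlap between the groups, was lost from the 6 NPC arrays alone (adjusted p = 0.134) and with a replicate block on them (0.156). It was also lost without control NPC replicate 1 (0.0618), control NPC replicate 2 (0.0910) or knockdown NPC replicate 1 (0.0879), out of a range of 0.0118 to 0.156. So 1 of the 4 let-7 decay genes rose in knockdown NPC and 0 fell, where 0.820% of all genes rose, and in knockdown ESC 0 rose and 0 fell, where 5.21% of all genes were called.

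Tut4, the uridylyl transferase that tails let-7 precursors, rose by 0.52 ± 0.12 from control ESC to control NPC (SE, adjusted p = 0.00232). Dis3l2, the exonuclease that degrades the tailed precursors, changed by 0.28 ± 0.13 (SE, adjusted p = 0.101). On knockdown, Tut4 changed by 0.083 ± 0.12 in ESC and -0.19 ± 0.12 in NPC, and Dis3l2 by -0.059 ± 0.13 and 0.084 ± 0.13 (SE), none of them called.

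Of 16 microRNA processing and effector genes, 6 rose and 4 fell from control ESC to control NPC, against 48.6% of all genes called. Among the Argonaute genes, whose proteins carry mature microRNAs, Ago1 rose by 0.93 ± 0.084 and Ago4 by 0.84 ± 0.12 (SE), while Ago2, named after its values were seen, fell by 0.42 ± 0.092 (SE, adjusted p = 0.00161). Ago4 lay at 5.88, 5.70 and 5.51 in control ESC, at the arrays' lower quartiles or under them, and its fold is only approximate. Tnrc6a, a partner of Argonaute in silencing, rose by 1.45 ± 0.25, and Tarbp2, a partner of Dicer, fell by 0.74 ± 0.13 (SE). None of the 16 rose or fell in either knockdown contrast, where 5.21% of all genes were called in ESC and 1.03% in NPC. Dicer1, which cuts the let-7 precursor, changed by -0.19 ± 0.081 in ESC and -0.061 ± 0.081 in NPC (SE). The median changes of the list on knockdown were -0.0063 in ESC and -0.038 in NPC, against 0.017 and 0.0037 over all genes.

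Host transcripts of let-7 genes gave a view of their loci, though not of the microRNAs, and were chosen after their values were seen. Mir99ahg, host of a let-7c gene, lay at 6.66, 6.50 and 5.90 in control ESC and at 10.45, 9.96 and 10.12 in control NPC. It rose by 3.82 ± 0.20 (SE), or 14.2-fold (adjusted p = 5.24e-09), from ESC levels around the lower quartiles of the arrays. Mir100hg, host of a let-7a gene, rose by 0.39 ± 0.15 (SE, adjusted p = 0.0475), a call lost in 9 of 21 alternatives, with adjusted p from 0.0119 to 0.146. Neither was called in a knockdown contrast.

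Of 25 let-7 target genes measured out of 30 listed, 0 rose and 6 fell in knockdown ESC, where 3.37% of all genes fell. Their median change was -0.14 against 0.017 over all genes. In the same arrays 3 of 12 neural progenitor and 4 of 12 neuron markers fell and 0 rose, and their part in this count was not tested. Myc, the proliferation factor, lay at 10.47, 10.86 and 10.66 in control and 9.81, 10.02 and 9.82 in knockdown ESC, without overlap. It fell by 0.78 ± 0.11 on the log2 scale (SE), or 1.71-fold (adjusted p = 0.00298). Fign, a microtubule-severing enzyme gene, fell by 1.04 ± 0.15 (SE, adjusted p = 0.00313), and Irs2, an adaptor of the insulin receptor, by 0.74 ± 0.12 (SE, adjusted p = 0.00490).

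Ccnd2, a D-type cyclin, fell by 0.79 ± 0.16 (SE, adjusted p = 0.0161) in knockdown ESC. Igf2bp3, an RNA-binding protein of growth factor messages, fell by 0.54 ± 0.13 (SE, adjusted p = 0.0315) and Mycn by 0.35 ± 0.090 (SE, adjusted p = 0.0424). Without control ESC replicate 3 the count of targets that fell was 3, and so it was from the 6 ESC arrays alone, out of 3 to 8 over all alternatives. Mycn lost its call in 13 of 21 alternatives. Without control ESC replicate 3 neither Ccnd2 (adjusted p = 0.0937) nor Igf2bp3 (0.149) passed, nor did they from the 6 ESC arrays alone (0.0607 and 0.0967). Igf2bp3 was also lost without control ESC replicate 2 or knockdown ESC replicate 1 or 2, out of 0.00692 to 0.149. The architectural gene Hmga2 (-0.31 ± 0.16) and Igf2bp1 (-0.18 ± 0.083, SE) did not pass the test.

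In knockdown NPC 0 of the 25 targets rose and 0 fell, where 1.03% of all genes were called. Myc was at -0.35 ± 0.11 (SE, adjusted p = 0.180) and Hmga2 at -0.27 ± 0.16 (SE, adjusted p = 0.724). Irs2 was the 1 target whose knockdown effects differed between states, by 0.82 ± 0.16 (SE, adjusted p = 0.0366), where 1.42% of all genes were called. That call was lost in 10 of 19 alternatives, 9 of them with 1 array left out, with adjusted p from 0.00818 to 0.0982. From control ESC to control NPC 15 targets rose and 6 fell of 25, where 23.5% of all genes rose and 25.1% fell, with a median change of 0.49 against -0.042 over all genes. This comparison and the knockdown in ESC share the control ESC arrays.

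Hmga2, a let-7 target known for its level in fetal neural stem cells, rose with state by 2.68 ± 0.16 (SE), or 6.39-fold. Ccnd2 rose by 3.43 ± 0.16, the zinc finger gene Plagl2 by 2.52 ± 0.085 and the receptor gene Tgfbr1 by 2.20 ± 0.10 (SE). Myc rose by 0.56 ± 0.11 and Igf2bp3 by 0.65 ± 0.13, while Mycn fell by 1.34 ± 0.090 and Igf2bp1 by 0.43 ± 0.083 (SE, all on the log2 scale). The targets thus went both ways with differentiation, 15 up and 6 down, and a link to either Lin28 paralog was not tested.

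**Figure D3:**
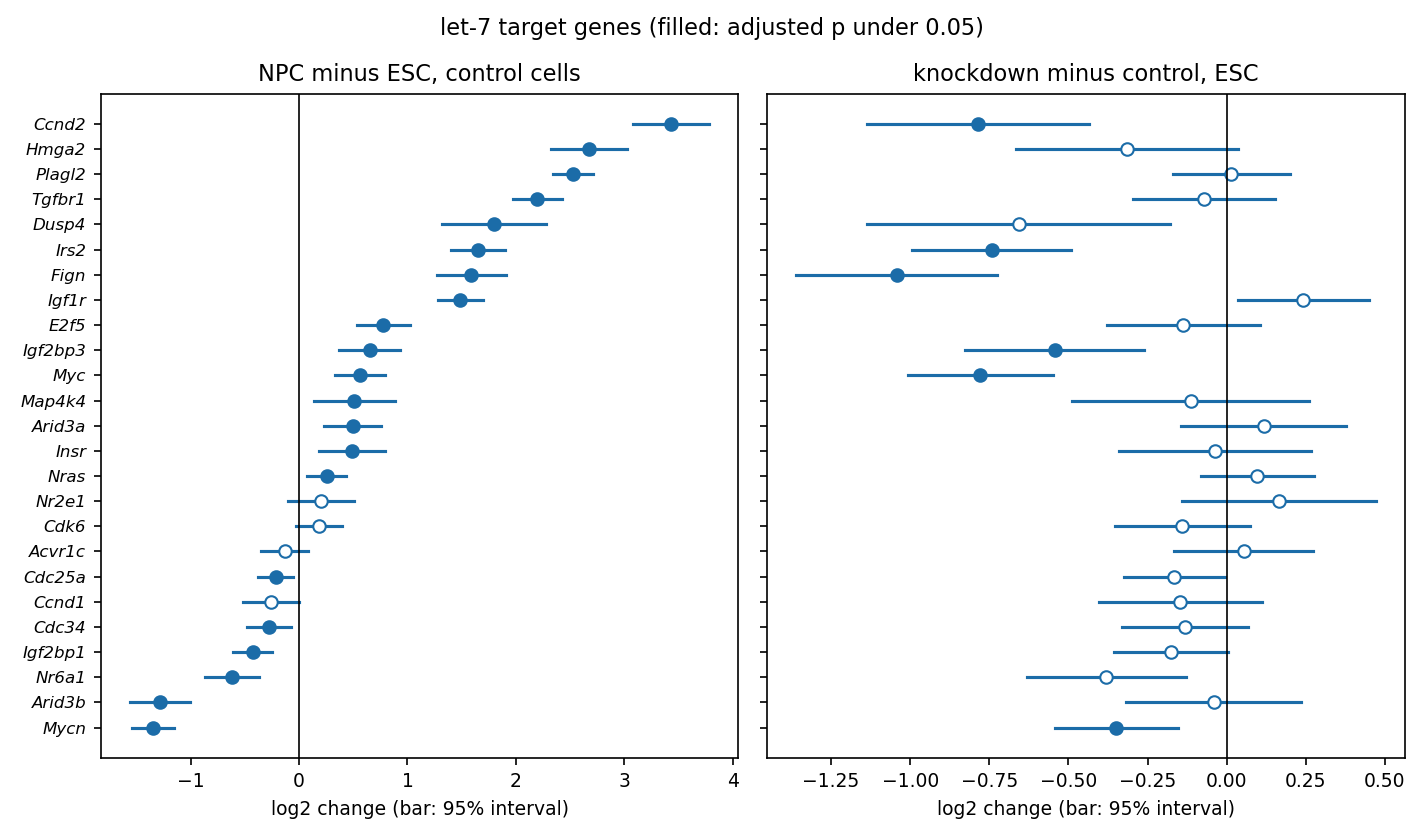
Log2 change of 25 let-7 target genes from control ESC to control NPC (left) and from control to knockdown ESC (right), ordered by the left panel, with 95% intervals; filled points have an adjusted p under 0.05. In the right panel the 6 filled points all lie below 0, and both panels use the same control ESC arrays.

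Of 9 genes reported as targets of Trim71, 6 rose and 1 fell from control ESC to control NPC, where 23.5% of all genes rose and 25.1% fell. Hoxa5, a Hox factor of the trunk, rose by 4.61 ± 0.14 (SE), from control ESC values of 5.83, 5.56 and 6.07 around the arrays' lower quartiles, which leaves its fold approximate. The splicing regulator gene Mbnl1 rose by 1.31 ± 0.24 (SE). The cell cycle inhibitor gene Cdkn1a, a repressed target of Trim71 in stem cells, rose by 0.50 ± 0.12 and the plexin gene Plxnb2 by 0.55 ± 0.11 (SE). Inhbb, an activin subunit gene, fell by 1.56 ± 0.21 on the log2 scale (SE). On knockdown 0 of the 9 rose and 0 fell in either state, where 5.21% of all genes were called in ESC and 1.03% in NPC, with Cdkn1a at 0.14 ± 0.12 in ESC and 0.41 ± 0.12 in NPC (SE, adjusted p = 0.568 and 0.149).

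Genes with array profiles most like those of the 4 were sought by the distance between profiles over 12 arrays, each centred on its own mean. Across the 12 arrays Lin28a correlated with Trim71 at 0.989 and with L1td1 at 0.976, and with Lin28b at -0.67; these values mainly reflect the 2 cell states and the arrays all genes share. Nearest to Lin28a were Hspbap1 (distance 0.34, r = 0.996), Atp10d, Usp28, Sall4, a transcription factor of pluripotent cells, and Fpgs (distances 0.50 to 0.53). Nearest to Trim71 were Ahdc1, Arhgef1, Zfp961, Ifrd2 and Arhgef18 (distances 0.36 to 0.42). Nearest to L1td1 were Nlrp4a, Nr0b1, a nuclear receptor gene of stem cells, Irak3, Dmtn and Slc7a3 (distances 0.80 to 1.13).

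Nearest to Lin28b were Cask (distance 0.67, r = 0.955), Myc (distance 0.69, r = 0.963), Plxnc1, Tmem42 and Igf2bp3 (distance 0.74, r = 0.956). Of these 5, Myc and Igf2bp3 are also on the list of let-7 targets, which held 25 of the 18784 genes. That list was chosen with earlier results of these data known, and a link of Lin28b to the targets was not tested. Cask, Plxnc1 and Tmem42, which are not on the list, changed by -0.67, -0.78 and -0.76 in knockdown ESC. Igf2bp3 lay at 10.73, 11.07 and 11.03 in control ESC and at 10.09, 10.48 and 10.63 in knockdown ESC, then at 11.57 to 11.61 in control NPC and 11.41 to 11.53 in knockdown NPC. Myc and Igf2bp3 were taken from the 5 because they are on that list. The 5 were chosen for likeness to Lin28b over these arrays, so a like order of groups follows from that choice. Between control and knockdown NPC Lin28b overlapped, while Igf2bp3 and Myc (11.15 to 11.31 and 10.81 to 10.93) did not. Of all genes 14.2% were without overlap there, 5.91% with knockdown lower. Neither Igf2bp3 (-0.12 ± 0.13) nor Myc (-0.35 ± 0.11) was called in knockdown NPC (SE, limma adjusted p = 0.925 and 0.180).

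**Figure D4:**
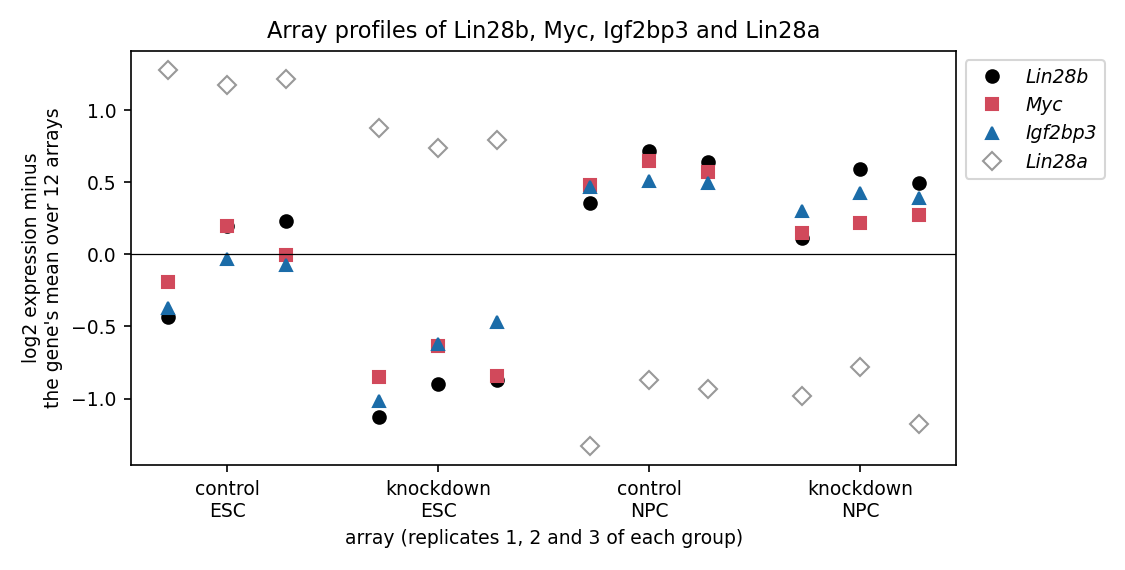
Log2 expression of Lin28b (circles), Myc (squares), Igf2bp3 (triangles) and, for contrast, Lin28a (open diamonds) in each of 12 arrays, with each gene's mean over the arrays subtracted. Myc and Igf2bp3 are the listed let-7 targets among the 5 genes most like Lin28b over these arrays. Lin28b, Myc and Igf2bp3 are lowest in knockdown ESC, and Lin28a lies on the opposite side of 0 from them in NPC.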

How the data were processed

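RNA of 12 cell samples was hybridised to Affymetrix mouse gene arrays. The deposited values are log2 expression, 1 value per probe set and array; affy, RMA and limma were used, per the submitters' processing notes, with versions and genome build not given in the sources used here. Background correction and probe summaries of this kind shrink differences between dim genes. There are no detection calls.

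Of 21212 probe sets, 18786 had 1 gene symbol, 6 several and 2420 none; the highest-mean probe set per gene gave 18784 genes. Group means over the 12 arrays were modelled with limma 3.58.1 (R 4.3.3; 8 residual and 4.81 prior degrees of freedom), with two-sided tests and Benjamini-Hochberg adjustment over the named genes. Probe sets with no name entered the variance estimate but no adjustment. The steps were tested on simulated data. The number of arrays limits the precision.

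The 4 genes and the lists were chosen with earlier results of these data known. From each pathway list up to 4 called genes with the smallest p were named per contrast, with 8 fixed genes (Myc, Mycn, Hmga2, Igf2bp1, Dicer1, Dis3l2, Tut4 and Cdkn1a); Mir99ahg, Mir100hg, Ago2, Dcx and the further called let-7 targets were named after their values were seen. Alternatives were a replicate block, the 6 arrays of a contrast alone, array weights, the 14088 genes left by a low-value filter, a robust prior with an intensity trend, quantile normalization, median centring, averaging all probe sets of a gene and leaving out each array; counting the let-7 targets under each of these was chosen after seeing the data. Replicate numbers were read from titles. Deviations of same-numbered arrays correlated across genes at 0.266, 0.286 and 0.334 between control ESC and control NPC, so the numbers were taken to pair that contrast. Elsewhere at least 1 of the 3 pairs was under 0.1. The main limma fit had no replicate term, so its SE and adjusted p for control NPC against control ESC left this pairing out. The replicate block was run as an alternative only. Promoter and microRNA sequences are from RefSeq (GRCm38.p6), where all 4 genes and 12 let-7 family hairpins matched.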

Additional observations from a re-analysis of the deposited data

Results flagged for a closer look

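The knockdown effect on 2 genes differed between cell states in limma's test of the difference itself. For Kdm5b, the targeted gene, the effect in NPC minus that in ESC was 0.96 ± 0.16 (log2, SE, adjusted p = 0.0172), and adjusted p ran from 0.00417 to 0.0591 over the alternatives, above 0.05 when control ESC replicate 3 (0.0591) or knockdown NPC replicate 2 (0.0512) was left out. For the let-7 target Irs2 it was 0.82 ± 0.16 (log2, SE, adjusted p = 0.0366), a call lost in 10 of 19 alternatives, with adjusted p from 0.00818 to 0.0982, and 0.0524 with a replicate block.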

How the results depend on the processing

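Of 20 results for the 4 genes (each gene in 5 contrasts), 13 kept their direction and their side of the threshold under every alternative run, among them every fall of Lin28a, Trim71 and L1td1 with cell state and the rise of Lin28b in knockdown cells. The causes of the others were not tested. The change of Lin28a in knockdown ESC was called from the 6 ESC arrays alone (-0.42, adjusted p = 0.0435) and with array weights (-0.41, adjusted p = 0.0393), and ranged from -0.46 to -0.39 when 1 array was left out. Without 1 array the fall of Lin28b in ESC ranged from -1.18 to -0.85, its rise with state from 0.36 to 0.69 and its difference of effects from 0.68 to 1.01. With array weights that rise was 0.35 and not called, and the difference was 1.05 and called. With a replicate block on all 12 arrays the difference for Lin28b was 0.79 and called (adjusted p = 0.0331), and that for Irs2 was 0.82 and no longer called (adjusted p = 0.0524), although the numbers were not taken to pair those arrays; in the contrast they were taken to pair, control NPC against control ESC, the replicate block changed no call of the 4 genes. In knockdown NPC, where nothing was called, signs turned for Trim71 with array weights (0.096), and without 1 array values ranged from -0.078 to 0.16 for Lin28a, -0.13 to 0.11 for Trim71 and -0.052 to 0.32 for L1td1. Without 1 array Dis3l2 ranged from -0.14 to 0.028 in ESC and -0.077 to 0.19 in NPC, and Tut4 from -0.042 to 0.17 in ESC.

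Counts over all genes moved more. In knockdown ESC 979 genes were called, 500 from the 6 arrays alone, 396 with a replicate block on them, 2887 with array weights and 193 to 1536 without 1 array. In knockdown NPC 194 were called, 29 from the 6 arrays alone, 57 with a replicate block on them and 83 to 247 without 1 array. For the difference of effects 267 were called, 152 with a replicate block, 955 with array weights and 35 to 546 without 1 array. L1td1 in NPC lies near the floor of the arrays, which limits the size of its fall.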
